A study of Homo sapiens with 6 samples.

Results

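The histone genes of LN229, an established cell line from a human glioblastoma, were examined in cells overexpressing the non-coding RNA gene HSD52 and in wild-type cells. They were taken as every protein-coding row of the deposited gene count table whose symbol begins with HIST1H to HIST4H, H2AF, H3F3, H1F or H2BF. This rule gave 91 of the 58735 genes in the table, namely 71 replication-dependent genes (symbols beginning with HIST) and 20 genes of histone variants. The HSD52_OE group held 3 LN229 libraries with the genotype given as HSD52 overexpression, and the control group held 3 LN229 libraries with the genotype given as WT. The labels do not say how HSD52 was introduced, whether the overexpressing cells were a clone or a pool, whether the controls carried an empty vector, or whether a group's libraries are from separate cultures. Each p-value here is thus set against library-to-library spread, which may be technical.

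Histones are the proteins around which DNA is wound. The core histones H2A, H2B, H3 and H4 form the nucleosome, and linker histone H1 binds the DNA between nucleosomes. Replication-dependent histone genes stand in clusters, are transcribed mainly in S phase and supply the histones laid down on new DNA. Their messenger RNAs end in a stem-loop bound by SLBP and normally carry no poly(A) tail, although some of these genes also give longer transcripts with a tail. Most variant histone genes have introns or ordinary polyadenylated messages and are transcribed throughout the cell cycle. Variant genes supply proteins with particular places in chromatin, such as H2A.Z, H2A.X and H3.3. The libraries were made from RNA selected on poly-T beads, so a count of a HIST gene comes from its tailed transcripts and from whatever untailed RNA passed the selection, and it is no measure of the main, stem-loop form.

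The stem-loop was searched for in all annotated transcripts (GENCODE 29, hg38, the annotation whose gene identifiers and positions match the deposited table for all 58735 genes). It was found in 49 of 58676 genes with a transcript sequence (0.0835%). It was in 32 of the 71 HIST genes (45.1%), in 1 of the 20 variant genes (5.0%) and in 16 genes outside these sets (0.0273%). The sets hold protein-coding genes only, so histone pseudogenes count as outside them. How many of the 16 are histone pseudogenes was not tested. The sites of the 4 HIST genes that passed the test of expression, of HIST1H2BC, which stands head to head with HIST1H2AC, of an H3 and a further H4 gene for comparison, and of H2AFX are shown here, with the 16 bases of the stem-loop in capitals and 5 bases on each side. They were read from the transcripts and lie at chr6:26124664-26124689 (HIST1H2AC, plus strand), chr6:26158582-26158607 (HIST1H2BD, plus strand), chr6:27839085-27839110 (HIST1H2BN, plus strand), chr12:14770719-14770744 (HIST4H4, minus strand), chr6:26123467-26123492 (HIST1H2BC, minus strand), chr6:26225591-26225616 (HIST1H3E, plus strand), chr6:27139649-27139674 (HIST1H4I, plus strand) and chr11:119094893-119094918 (H2AFX, minus strand), after the coding sequence in each case. A second HIST1H2BN site lies at chr6:27865773-27865798, in a spliced transcript of that gene, just past the annotated end of HIST1H2AL.
HIST1H2AC: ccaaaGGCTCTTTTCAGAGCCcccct
HIST1H2BD: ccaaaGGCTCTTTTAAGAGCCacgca
HIST1H2BN: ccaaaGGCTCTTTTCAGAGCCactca
HIST1H2BN, second site: acaacGGCTCTTTTCAGAGCCaccta
HIST4H4: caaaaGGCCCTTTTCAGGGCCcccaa
HIST1H2BC: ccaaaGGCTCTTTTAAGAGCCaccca
HIST1H3E: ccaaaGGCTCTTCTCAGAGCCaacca
HIST1H4I: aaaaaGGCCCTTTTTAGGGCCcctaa
H2AFX: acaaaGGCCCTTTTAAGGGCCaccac
All 8 H4 genes with a site and H2AFX have a stem that opens with GGCCC, and all 24 H2A, H2B and H3 genes with a site have one that opens with GGCTC. The core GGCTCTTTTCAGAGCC was the most frequent, found in 6 H2A, 8 H2B and 3 H3 genes. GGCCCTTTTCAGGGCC was found in 5 H4 genes and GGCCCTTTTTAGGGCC in 3. The annotated transcripts of the remaining 39 HIST genes hold no stem-loop, which says only that these letters are not in the annotated sequences.

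Totals were 17777157 to 18917790 counts per library. A level of 1 CPM (a count scaled to library size, with TMM factors) corresponded to 17.2 to 19.7 counts. Counts were found for 26359 to 26755 genes in HSD52_OE and for 22855 to 23545 genes in control libraries. The TMM factors were 1.041 to 1.047 in HSD52_OE and 0.9403 to 0.9876 in control libraries. The part of this difference in the rises of genes with few counts was not tested. HSD52 had 1252, 1336 and 1327 counts in the HSD52_OE libraries and 11, 7 and 12 counts in the control libraries, in keeping with the labels. All 9 glioma and astrocyte markers were tested and together reached 2916 to 2982 CPM in HSD52_OE and 3062 to 3380 CPM in control libraries. Of these 9, 3 were higher and 3 were lower. Among markers of other cell types AIF1 (microglia) and CD3E (T cells) were at 0 in every library. PTPRC, found on all white blood cells, had 6, 7 and 6 counts in HSD52_OE and 2, 0 and 1 counts in control libraries. Of the 15 markers of other cell types, 9 were tested. Of these 9, 3 were higher and 5 were lower, beside 25.0% and 25.6% over all genes tested. The summed level of the 15 was 196 to 207 CPM in HSD52_OE and 195 to 284 CPM in control libraries. That sum is mostly the keratin gene KRT18, and the fibroblast markers COL1A1 (99, 103 and 111 counts in HSD52_OE and 1395, 1805 and 596 counts in control libraries), COL1A2, LUM and THY1 and the endothelial PECAM1 fell, by 1.14 (LUM) to 4.6 (COL1A2) on the log2 scale. The keratin genes KRT8 and KRT18 and the neuronal SYP rose. Of 7 male germ line markers, DAZL, PRM1, PRM2 and TNP1 were at 0, and the list summed to 0.406 to 0.645 CPM in HSD52_OE and 0 to 0.114 CPM in control libraries. The part of these markers in the results below was not tested. Control libraries differed more from each other (a chi-square over gene counts of 15.1 to 18.6 per degree of freedom between pairs) than HSD52_OE libraries did (2.23 to 3.51). The edgeR quasi-likelihood test covered 16322 genes, of which 8258 (50.6%) passed a Benjamini-Hochberg adjusted p of 0.05, 4086 (25.0%) higher and 4172 (25.6%) lower in HSD52_OE cells. Of the 13155 protein-coding genes among them, 21.4% were higher and 30.1% were lower. Scaling by library totals alone, without composition factors, moved the median over all genes up by 0.12 on the log2 scale and gave 5314 higher and 2945 lower genes.

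The messages of the variant genes were far more abundant in these libraries than those of the HIST genes. The 20 variant genes together held 2549, 2590 and 2658 CPM in HSD52_OE libraries and 3069, 3547 and 3168 CPM in control libraries. The 71 HIST genes together held 82.1, 74.7 and 77.1 CPM in HSD52_OE libraries and 82.0, 87.3 and 96.9 CPM in control libraries. The variant sum did not overlap between the groups and was lower in HSD52_OE (2599 ± 54.9 CPM, against 3261 ± 252 CPM in control, SD, n = 3 each), a log2 ratio of -0.33, or -0.20 by library totals. The HIST sum overlapped between the groups, at 78.0 ± 3.81 CPM in HSD52_OE and 88.7 ± 7.54 CPM in control (SD, n = 3 each), a log2 ratio of -0.19, or -0.07 by library totals. Sums of this kind were given no test. The variant sum was 33.3 times the HIST sum in HSD52_OE and 36.8 times in control libraries. Fewer cells that express a gene and less RNA per cell cannot be told apart in such bulk libraries.

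Of the 9 variant histone genes that could be tested, 4 were lower in the HSD52_OE cells, 1 was higher and 4 did not pass, a share called near that of all genes. Of the 20 variant genes, 6 had no count in any library, 5 had counts but fell below the filter on low counts, and 9 were tested. Of these 9, H2AFJ rose, H1FX, H1F0, H2AFX and H3F3A fell, and H2AFZ, H2AFV, H2AFY and H3F3B did not pass the threshold. The median log2 fold change of the 9 was -0.24, beside 0.01 over all genes tested and -0.06 over the 13155 protein-coding genes tested, or -0.11 when scaled by library totals. The 5 called of 9 (55.6%) stand beside 50.6% called over all genes tested (21.4% higher and 30.1% lower over protein-coding genes), and beside 53.6% of the 7804 protein-coding genes within the same range of mean level, of which 17.0% were higher and 36.6% were lower. The groups did not overlap for any of the 9 genes, with 1 above and 8 below, while they did not overlap for 58.9% of all genes tested, 29.6% above and 29.3% below.

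**Figure D1:**
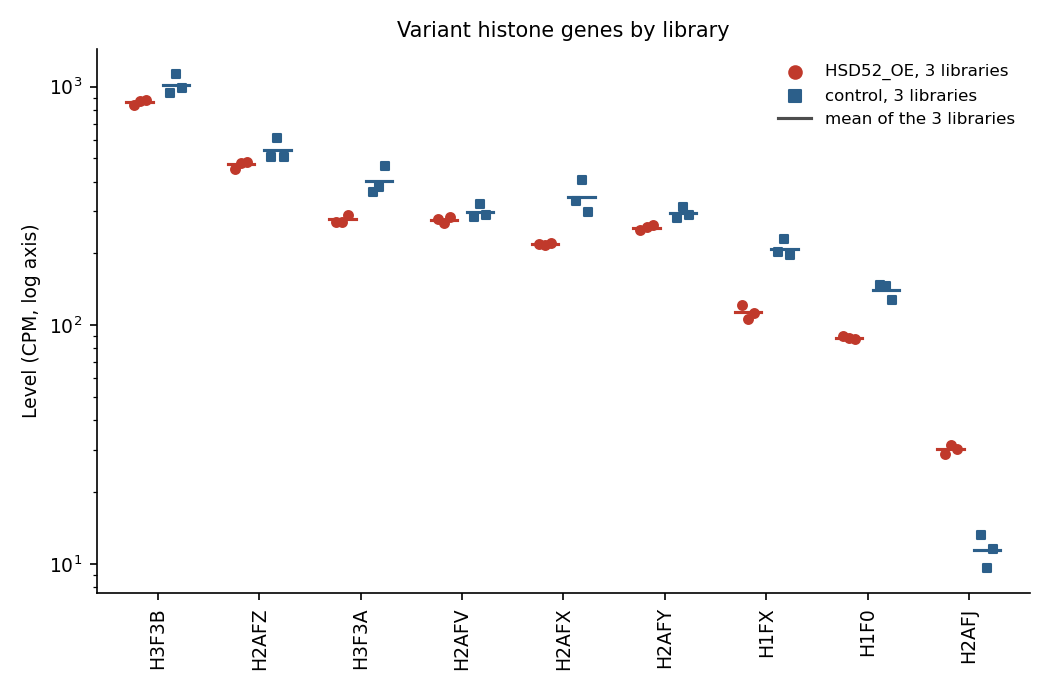
Levels of the 9 tested variant histone genes in CPM on a log axis, with circles for the 3 HSD52_OE libraries, squares for the 3 control libraries and lines for their means. H2AFJ is the 1 gene whose HSD52_OE libraries lie above the control libraries, and the 8 others lie below, H2AFV by the least.

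Both tested linker histone variants fell. H1FX encodes a linker histone found in most cell types, and had 2246, 2042 and 2226 counts in HSD52_OE libraries, against 3474, 4046 and 3534 counts in control libraries. It averaged 113 ± 7.32 CPM in HSD52_OE and 209 ± 18.1 CPM in control (SD, n = 3 each), a log2 fold change of -0.89 ± 0.09 (SE, edgeR quasi-likelihood adjusted p = 1.46e-06). Every HSD52_OE library lay well under every control library. The row of its antisense neighbour H1FX-AS1, whose exons overlap those of H1FX, moved the other way, with 98, 74 and 87 counts in HSD52_OE and 37, 47 and 35 counts in control libraries (log2 fold change 1.0 ± 0.21, edgeR adjusted p = 0.0012). Without a stated strand setting, reads of this pair cannot be told apart where they overlap, and the same holds for H2AFZ, H3F3A and H2AFY, which share exon bases with genes on the other strand. H1F0, the linker histone known for rising as cells stop dividing and differentiate, had 1674, 1708 and 1732 counts in HSD52_OE and 2539, 2563 and 2293 counts in control libraries. Its level was 88.8 ± 1.07 CPM in HSD52_OE and 140.0 ± 11.5 CPM in control, a log2 fold change of -0.66 ± 0.08 (edgeR adjusted p = 1.37e-05). The oocyte linker histone gene H1FOO had no count, and the spermatid gene H1FNT had 2 counts in 6 libraries.

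Among H2A variants, H2AFX and H2AFJ moved in opposite directions. H2AFX encodes the variant that is phosphorylated around DNA double-strand breaks, and it had 4101, 4176 and 4387 counts in HSD52_OE and 5692, 7167 and 5399 counts in control libraries. It averaged 220.0 ± 2.80 CPM in HSD52_OE and 346 ± 55.5 CPM in control (SD, n = 3 each), a log2 fold change of -0.65 ± 0.10 (edgeR adjusted p = 1.09e-04). The HSD52_OE libraries were close together and all lay below the lowest control library. H2AFX is also the variant gene whose transcripts hold the stem-loop printed above, in both of its 2 annotated transcripts, which run up to 1044 bases past it. As for the HIST genes, its count is no measure of any stem-loop form without a tail. H2AFJ encodes H2A.J, a mammalian variant known to build up in senescent fibroblasts. It had 538, 608 and 597 counts in HSD52_OE and 227, 169 and 207 counts in control libraries, so that each HSD52_OE library held over double the count of any control library. It averaged 30.2 ± 1.34 CPM in HSD52_OE and 11.4 ± 1.81 CPM in control, a log2 fold change of 1.40 ± 0.12 (edgeR adjusted p = 3.22e-07).

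The other tested H2A variants did not pass the test. H2AFZ and H2AFV both encode H2A.Z, a variant found at promoters and enhancers. H2AFZ had 8420, 9225 and 9539 counts in HSD52_OE and 8721, 10739 and 9135 counts in control libraries, and its log2 fold change of -0.20 ± 0.10 did not pass (edgeR adjusted p = 0.0976). H2AFV had 5172, 5158 and 5572 counts in HSD52_OE and 4856, 5652 and 5223 counts in control libraries, a log2 fold change of -0.11 ± 0.09 (edgeR adjusted p = 0.302) that became 0.01 when scaled by library totals. For H2AFV the highest HSD52_OE and the lowest control library both stood at 283 CPM after rounding, so the gap between the groups was small. H2AFY encodes macroH2A1, a variant with a large extra domain that marks the inactive X chromosome and silent regions. It had 4654, 4943 and 5192 counts in HSD52_OE and 4841, 5483 and 5234 counts in control libraries (log2 fold change -0.20 ± 0.08, edgeR adjusted p = 0.0583). Its relative H2AFY2 was below the filter. It had 14, 10 and 9 counts in HSD52_OE and 6, 3 and 3 counts in control libraries, without overlap. The fit without the first control library let it in and called it higher. No control library reached the filter level, so H2AFY2 entered through the group where it was high. Its row is also uncertain, because it shares exon bases with AIFM2 on the other strand. The testis genes H2AFB1 and H2AFB2 had no count and H2AFB3 had 3 counts in 6 libraries.

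The genes of the replacement histone H3.3 were the most counted of the variants. H3F3B had 15568, 16801 and 17419 counts in HSD52_OE and 16090, 19893 and 17747 counts in control libraries, and its log2 fold change of -0.24 ± 0.10 did not pass (edgeR adjusted p = 0.0547). H3F3A, which encodes the same protein, had 5056, 5201 and 5746 counts in HSD52_OE and 6225, 6704 and 8389 counts in control libraries. It averaged 278 ± 11.8 CPM in HSD52_OE and 403 ± 54.4 CPM in control, a log2 fold change of -0.54 ± 0.10 (edgeR adjusted p = 4.19e-04). Whether H3F3A and H3F3B differ in their response was not tested. Processed pseudogenes of H3F3A are counted in rows of their own. H3F3AP4 had 759, 795 and 869 counts in HSD52_OE and 838, 789 and 1141 counts in control libraries (log2 fold change -0.32 ± 0.11, edgeR adjusted p = 0.0294), and how reads matching both were assigned is not given in the sources used here, so the level of H3F3A is uncertain to that extent. H3F3B also shares exon bases with UNK, which had a log2 fold change of -0.27 (edgeR adjusted p = 0.0135). H3F3C, a further H3.3-like gene, had 7 counts in 6 libraries. The 4 H2B variant rows held 7 counts in all 6 libraries together, all of them in 1 of the 2 rows named H2BFS, while the testis genes H2BFWT and H2BFM had none.

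Per kilobase of annotated exon, the order of the variant genes over all 6 libraries ran from H2AFZ at 220.0 CPM per kb through H2AFX at 175, H3F3B at 153, H3F3A at 108, H1FX at 107, H2AFV at 60.4, H1F0 at 48.9 and H2AFY at 15.5 to H2AFJ at 6.21 CPM per kb. H2AFX and H3F3B changed places between the groups. They stood at 136 ± 1.73 and 141 ± 3.99 CPM per kb in HSD52_OE and at 214 ± 34.4 and 166 ± 16.4 CPM per kb in control libraries (SD, n = 3 each), and the gap between them was little more than the larger SD in each group. H3F3A and H1FX stood at 88.3 ± 3.76 and 75.1 ± 4.85 CPM per kb in HSD52_OE and at 128 ± 17.3 and 139 ± 12 CPM per kb in control libraries, where the gap between them was smaller than either SD. The length used is the sum of all annotated exons, which understates the level of genes with many long alternative exons such as H2AFY.

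**Figure D2:**
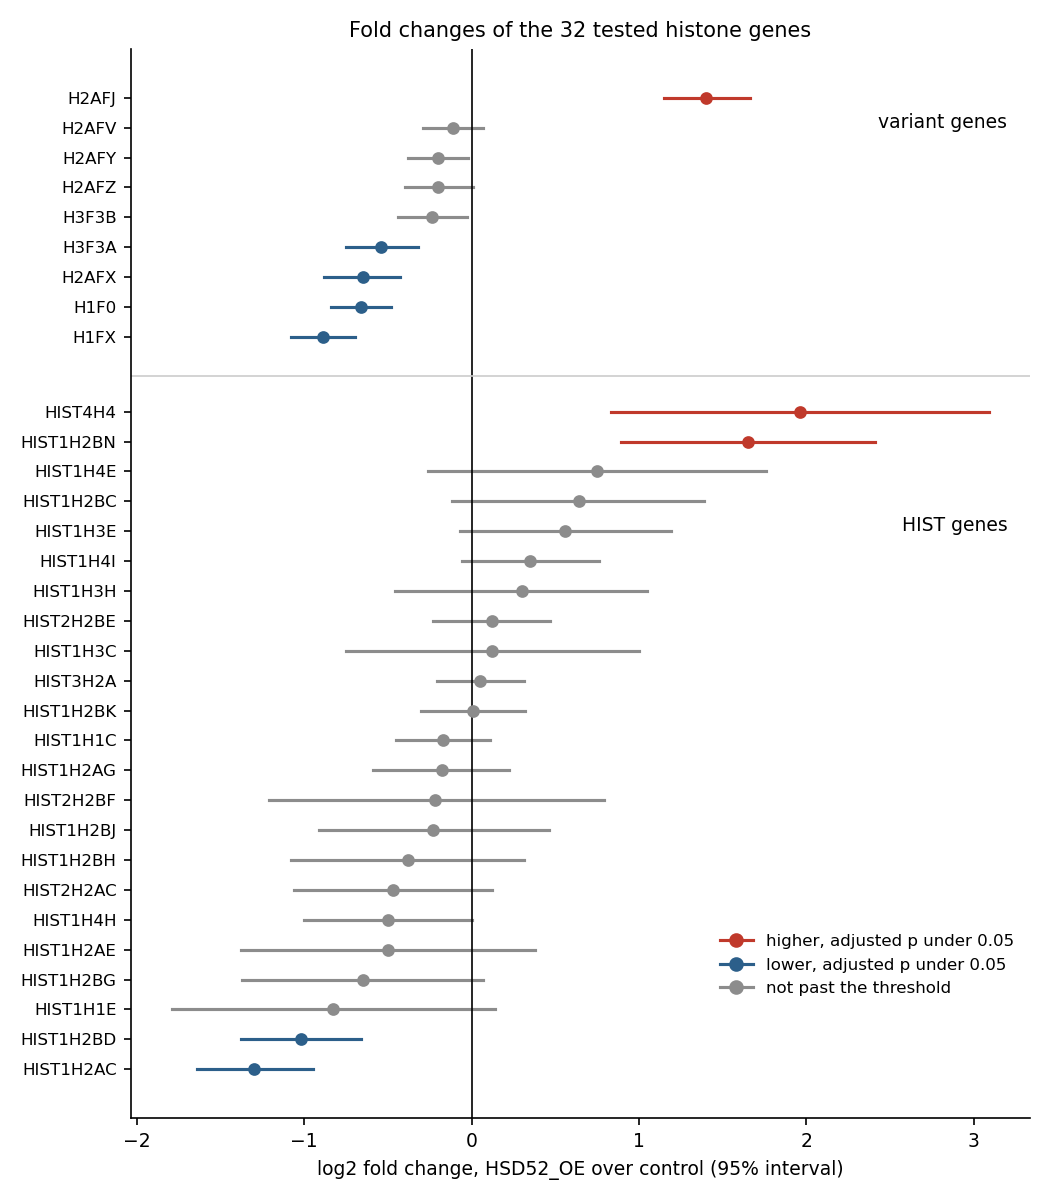
Log2 fold changes, HSD52_OE over control, with 95% intervals from the edgeR fit for the 9 tested variant genes (top) and the 23 tested HIST genes (bottom), coloured by call. The intervals of the HIST genes are wider, and most of them include 0.

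Among the replication-dependent genes, 2 were higher and 2 were lower in HSD52_OE cells. Classes as a whole were given no test. Of the 71 HIST genes, 12 had no count in any library, 36 had counts but were below the filter, and 23 were tested. HIST1H2BN and HIST4H4 rose and HIST1H2AC and HIST1H2BD fell, and the other 19 did not pass the threshold. The 4 called of 23 (17.4%) stand beside 50.6% called over all genes tested, 25.0% higher and 25.6% lower. They also stand beside 47.2% of the 3668 protein-coding genes in the same range of mean level (0.51 to 11.9 CPM). Of those 3668 genes, 29.3% were higher and 17.9% were lower. The median log2 fold change of the 23 was -0.17, with 11 above 0 and 12 below, or -0.05 by library totals. The groups did not overlap for 6 of the 23 genes (58.9% over all genes tested), 2 above and 4 below. The 23 tested genes held 92.6% of all HIST counts, and HIST1H1C, HIST3H2A and HIST1H2BK alone held 41.6 to 43.0% in HSD52_OE and 34.5 to 40.6% in control libraries. The 4 called genes held 12.7 to 16.4% of HIST counts in HSD52_OE and 20.1 to 21.4% in control libraries. Without them the HIST sum was 66.5 ± 1.96 CPM in HSD52_OE and 70.4 ± 5.93 CPM in control libraries.

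**Figure D3:**
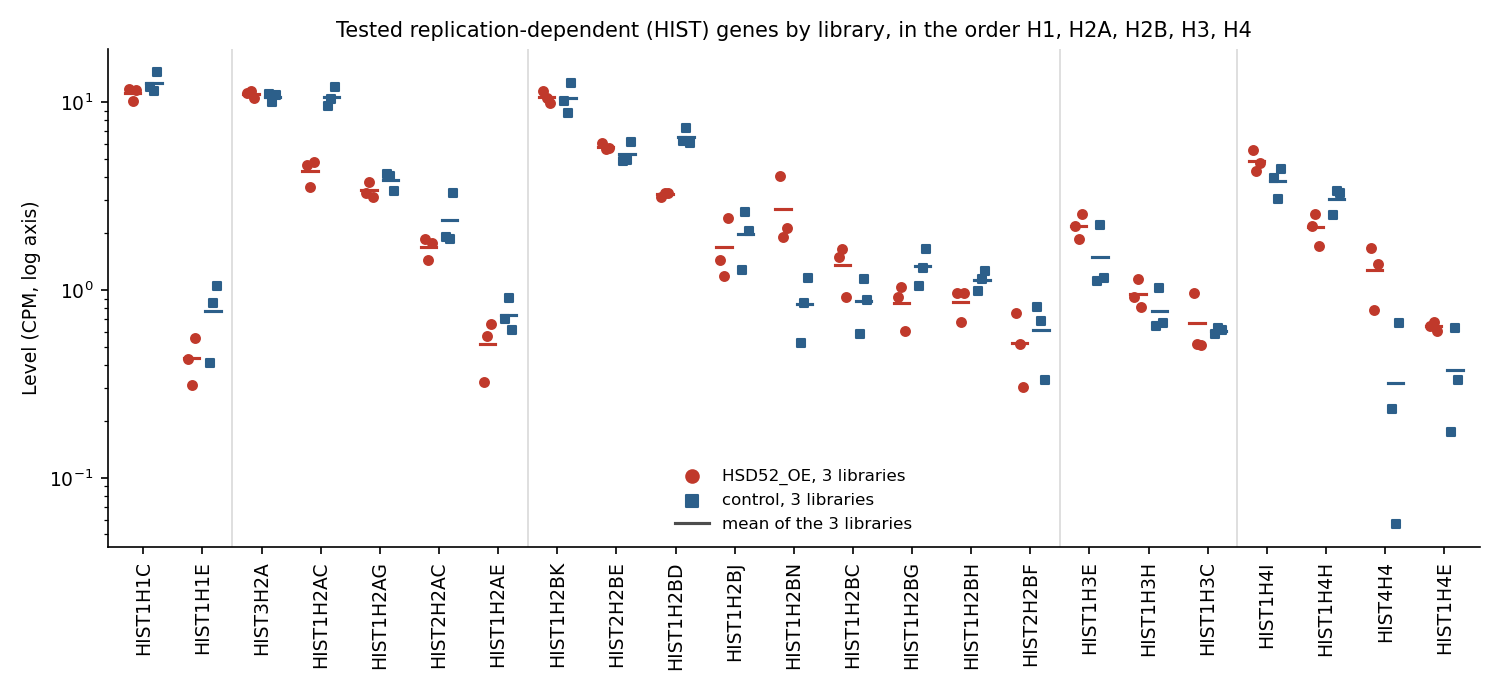
Levels of the 23 tested HIST genes in CPM on a log axis, by class from H1 to H4, with circles for the 3 HSD52_OE libraries, squares for the 3 control libraries and lines for their means. The groups are apart for HIST1H2AC and HIST1H2BD (lower in HSD52_OE) and for HIST1H2BN and HIST4H4 (higher), and overlap for most other genes.

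The linker histone genes of the clusters did not pass the test. HIST1H1C, which encodes H1.2 and had the most counts of all HIST genes, had 220, 197 and 229 counts in HSD52_OE and 206, 200 and 261 counts in control libraries. Its log2 fold change was -0.17 with a 95% interval of -0.45 to 0.11 (edgeR adjusted p = 0.301), and the groups overlapped. HIST1H1E, which encodes H1.4, had 8, 6 and 11 counts in HSD52_OE and 7, 15 and 19 counts in control libraries (log2 fold change -0.83, interval -1.79 to 0.14, edgeR adjusted p = 0.141). At these counts a fall of over 3-fold in HIST1H1E lies within the interval. HIST1H1B had 39 counts and HIST1H1D 9 counts in 6 libraries, and HIST1H1A and the testis gene HIST1H1T had none.

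In the H2A class HIST1H2AC fell and the other 4 tested genes did not pass. HIST1H2AC (chromosome 6, 26124145 to 26139116, plus strand) had 86, 68 and 95 counts in HSD52_OE and 163, 183 and 216 counts in control libraries. Its level was 4.32 ± 0.692 CPM in HSD52_OE and 10.6 ± 1.25 CPM in control (SD, n = 3 each), a log2 fold change of -1.30 ± 0.16 (edgeR adjusted p = 1.26e-05). All HSD52_OE libraries lay below all control libraries. HIST3H2A, on chromosome 1 outside the main cluster, had 209, 219 and 208 counts in HSD52_OE and 190, 176 and 197 counts in control libraries. Its log2 fold change of 0.05 had an interval of -0.21 to 0.31, the narrowest of the 5. HIST2H2AC had 35, 28 and 35 counts in HSD52_OE and 33, 33 and 59 counts in control libraries (log2 fold change -0.47, edgeR adjusted p = 0.168). HIST1H2AG had 61, 72 and 62 counts in HSD52_OE and 71, 71 and 61 counts in control libraries (log2 fold change -0.18, edgeR adjusted p = 0.442). HIST1H2AE had 30 counts over the 3 HSD52_OE libraries and 39 over the 3 control libraries. The summed level of the 17 H2A genes was 22.0 ± 0.471 CPM in HSD52_OE and 29.7 ± 1.40 CPM in control libraries. These sums did not overlap between the groups, and HIST1H2AC made up most of the gap.

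In the H2B class HIST1H2BD fell, HIST1H2BN rose and 7 tested genes did not pass. HIST1H2BD (chromosome 6, 26158146 to 26171349, plus strand) had 58, 63 and 65 counts in HSD52_OE and 107, 129 and 110 counts in control libraries. Its level was 3.23 ± 0.0975 CPM in HSD52_OE and 6.55 ± 0.677 CPM in control, a log2 fold change of -1.02 ± 0.17 (edgeR adjusted p = 1.72e-04). HIST1H2BN (chromosome 6, 27837760 to 27865798, plus strand) had 75, 37 and 42 counts in HSD52_OE and 9, 15 and 21 counts in control libraries, a log2 fold change of 1.65 ± 0.36 (edgeR adjusted p = 0.0013). Every HSD52_OE library was above every control library, with the first HSD52_OE library far above the other two. Its level reached the filter on low counts in 3 HSD52_OE and 2 control libraries, so it would not have passed on the control libraries alone. The HIST1H2BN row is uncertain, because its 4 annotated transcripts reach over 28 kb and share exon bases with HIST1H2AL on the same strand and HIST1H2AK on the other. HIST1H2AL had 4, 9 and 1 counts in HSD52_OE and 6, 6 and 4 counts in control libraries, and HIST1H2AK had none.

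The remaining H2B genes did not pass the test. HIST1H2BK, the H2B gene with the highest level (27.8 CPM per kb), had 213, 202 and 196 counts in HSD52_OE and 175, 154 and 228 counts in control libraries, a log2 fold change of 0.01 with an interval of -0.30 to 0.32. HIST2H2BE had 113, 108 and 112 counts in HSD52_OE and 84, 87 and 111 counts in control libraries (log2 fold change 0.12, edgeR adjusted p = 0.575). HIST1H2BJ had 27, 23 and 48 counts in HSD52_OE and 22, 46 and 37 counts in control libraries (log2 fold change -0.23, edgeR adjusted p = 0.583). HIST1H2BC, HIST1H2BG, HIST1H2BH and HIST2H2BF had 62 to 124 counts each over 6 libraries, with log2 fold changes between -0.65 for HIST1H2BG and 0.64 for HIST1H2BC. For HIST1H2BG and HIST1H2BH every HSD52_OE library lay below every control library without the test being passed (edgeR adjusted p = 0.12 and 0.344).

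The tested H3 genes passed in neither direction. HIST1H3E had 41, 36 and 50 counts in HSD52_OE and 19, 39 and 21 counts in control libraries, with a log2 fold change of 0.56 ± 0.30 (edgeR adjusted p = 0.131). The second control library stood at the level of the HSD52_OE libraries, and without it the log2 fold change was 0.95 and the edgeR adjusted p was 0.018. HIST1H3H had 17, 22 and 16 counts in HSD52_OE and 11, 18 and 12 counts in control libraries, and HIST1H3C had 18, 10 and 10 counts in HSD52_OE and 10, 11 and 11 counts in control libraries. Their log2 fold changes were 0.30 (interval -0.46 to 1.05) and 0.12 (edgeR adjusted p = 0.51 and 0.817). The summed level of the 15 H3 genes was 4.81 ± 0.0721 CPM in HSD52_OE and 4.56 ± 0.970 CPM in control libraries.

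In the H4 class HIST4H4 rose and 3 tested genes did not pass. HIST4H4 (chromosome 12, 14767999 to 14771131, minus strand) stands alone outside the clusters. It had 31, 15 and 27 counts in HSD52_OE and 4, 1 and 12 counts in control libraries, a log2 fold change of 1.96 ± 0.53 (edgeR adjusted p = 0.00635). It passed the filter on low counts through the HSD52_OE libraries, with 1 control library at that level, so both higher HIST calls are of genes that needed the group where they were high. A filter of 1 CPM in 3 libraries removes HIST4H4. HIST1H4I, the H4 gene with the highest level, had 103, 83 and 94 counts in HSD52_OE and 68, 54 and 80 counts in control libraries (log2 fold change 0.35 ± 0.19, edgeR adjusted p = 0.146). HIST1H4H had 41, 49 and 34 counts in HSD52_OE and 43, 59 and 59 counts in control libraries (log2 fold change -0.50 ± 0.23, edgeR adjusted p = 0.0899). HIST1H4E had 12, 13 and 12 counts in HSD52_OE and 3, 11 and 6 counts in control libraries (log2 fold change 0.75 ± 0.47, edgeR adjusted p = 0.199).

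The 36 HIST genes below the filter held 78, 101 and 107 counts together in HSD52_OE and 112, 143 and 142 counts in control libraries. Each had between 1 and 57 counts over 6 libraries, and 16 had fewer than 10. When they were let into the fit with no filter beyond 1 count, 3 of them passed, and these are named for that reason. HIST1H4K had 8, 5 and 15 counts in HSD52_OE and 1, 1 and 3 counts in control libraries. HIST1H4C had 3, 1 and 0 counts in HSD52_OE and 5, 11 and 3 counts in control libraries, and HIST1H4D had 0, 3 and 0 counts in HSD52_OE and 6, 9 and 3 counts in control libraries. The 12 genes at 0 were HIST1H1A, HIST1H1T, HIST1H2AA, HIST1H2AD, HIST1H2AK, HIST1H2AM, HIST1H2BA, HIST1H2BI, HIST1H3D, HIST2H3PS2, HIST1H4F and HIST1H4G, and 0 counts in 110286125 allow a level of up to 0.0272 CPM each (3 counts over 6 libraries), counting error only. All 12 lack an annotated stem-loop, as do 27 of the 59 HIST genes with counts. Of the 12, 5 share exon bases with another gene, against 10 of the 59. The median annotated length was 394 bases for the 12 and 642 bases for the 59, and the part of annotation length in this was not tested. Duplicated genes were also near 0. HIST2H3A and HIST2H3C share a transcript of identical sequence (1656 bases) and had 2 and 1 counts in 6 libraries, and HIST2H4A and HIST2H4B share one of 610 bases and had 5 counts each. How reads that match both copies were counted is not given in the sources used here, so these rows are uncertain.

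The HIST genes were also set out by the stem-loop annotation of their transcripts. Transcripts with and without the stem-loop are annotated for 6 HIST genes, HIST1H2AC, HIST1H2BC, HIST1H2BD, HIST1H2BN, HIST2H2BF and HIST4H4. All 6 were tested and 4 were called, 2 higher and 2 lower, beside 50.6% called over all genes tested. The 2 higher genes, HIST1H2BN and HIST4H4, would not have passed the filter on low counts without the HSD52_OE libraries, where they were high. Every transcript holds the stem-loop in 26 HIST genes, of which 11 were tested and 0 called by edgeR (0 also at an unadjusted p under 0.05, and 0 by DESeq2). No stem-loop is annotated in 39 genes, of which 6 were tested and 0 called by edgeR (0 also at an unadjusted p under 0.05, and 0 by DESeq2). The summed level of the 6 genes was 15.7, 11.7 and 12.8 CPM in HSD52_OE and 17.9, 20.5 and 21.1 CPM in control libraries, and that of the 26 genes was 35.9, 35.3 and 34.7 CPM in HSD52_OE and 34.1, 35.7 and 37.2 CPM in control libraries. A spliced transcript is annotated for 13 HIST genes, of which 9 were tested and 4 called, and the 58 genes with single-exon transcripts had 14 tested and 0 called by edgeR (0 also at an unadjusted p under 0.05, and 0 by DESeq2). Uncalled genes can also have ends of several lengths, as HIST1H3E has, with transcripts that run 5 and 1862 bases past the stem-loop. These groups were formed after the calls were known, the counts do not separate transcripts of a gene, and a difference between the groups was not tested.

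**Figure D4:**
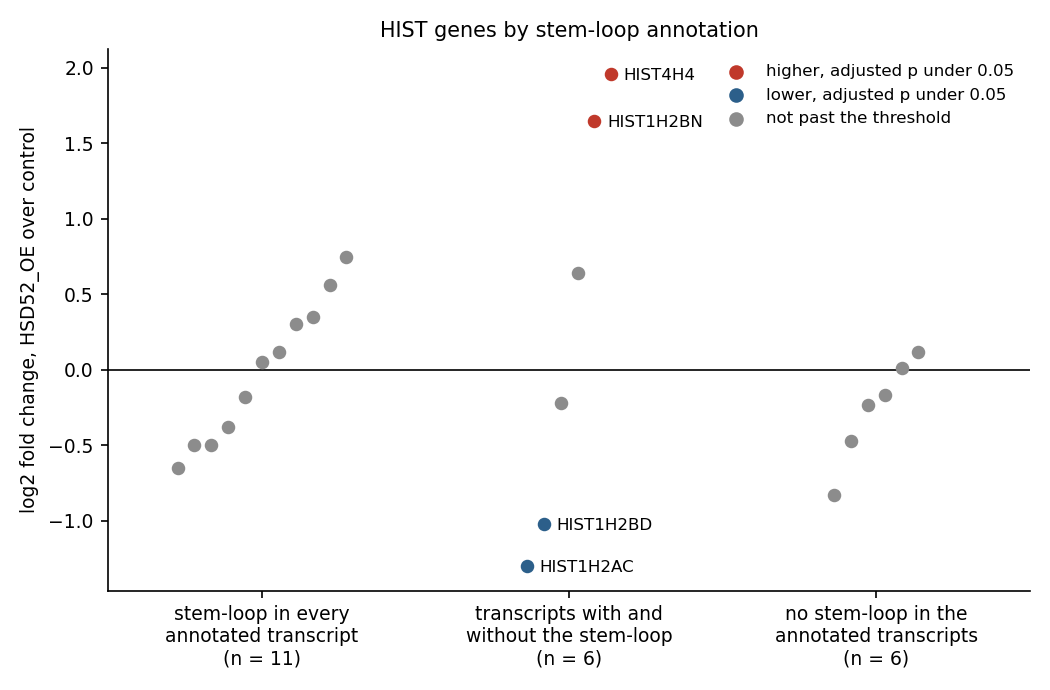
Log2 fold changes of the 23 tested HIST genes by the stem-loop annotation of their transcripts, coloured by call. The 4 called genes are all among the 6 with transcripts both with and without the stem-loop, and the 11 and 6 genes of the other groups hold none.

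HSD52_OE libraries also held more of some untailed RNAs. RNAs of the snRNA, snoRNA, scaRNA, rRNA, ribozyme and scRNA classes took 0.0104% ± 0.00085 of counts in HSD52_OE and 0.00391% ± 0.000911 in control libraries (SD, n = 3 each). Mitochondrial ribosomal RNA, which carries short adenine tails, took 0.253% ± 0.0155 in HSD52_OE and 0.177% ± 0.0406 in control libraries, and all genes of the mitochondrial chromosome took 3.45% ± 0.107 in HSD52_OE and 2.99% ± 0.372 in control libraries. Of 21 transcripts without a poly(A) tail, 9 rows were at 0 and 3 were tested. Of these 3, 1 was higher and 0 were lower, beside 25.0% and 25.6% over all genes tested. The spliceosomal U5 gene RNU5A-1 rose, with 68, 85 and 63 counts in HSD52_OE and 17, 25 and 24 counts in control libraries (log2 fold change 1.58 ± 0.25, edgeR adjusted p = 8.97e-05). RN7SL2, of the signal recognition particle, took up nearly all of the list's counts and did not pass (log2 fold change 0.09 ± 0.11). The summed list was 186 to 247 CPM in HSD52_OE and 185 to 200 CPM in control libraries. The part of such carry-over in the counts of HIST genes was not tested.

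Histone genes often stand head to head and share the DNA between their starts. By the annotated ends of the genes, 12 such pairs lay less than 1000 bases apart, with HIST1H2BO paired with both HIST1H2AM and HIST1H3J. HIST1H2BN and HIST1H2AK overlap on opposite strands and so are not among the pairs. Both genes were tested in 4 of the 12 pairs. In 1 of these the pair split. HIST1H2AC fell by 1.30 on the log2 scale, while HIST1H2BC, which starts 218 bases away on the other strand, had 28, 32 and 18 counts in HSD52_OE and 10, 20 and 16 counts in control libraries (log2 fold change 0.64 ± 0.36, edgeR adjusted p = 0.148). Whether the genes of this pair differ in their response was not tested. The other 3 pairs, HIST1H2BG with HIST1H2AE, HIST1H2BJ with HIST1H2AG and HIST2H2BE with HIST2H2AC, held no called gene. Outside the clusters, HIST4H4 and H2AFJ also stand head to head on chromosome 12, but with 3251 bases between them, and both rose. Of the 8 other tested genes within 1 Mb of them, 3 were higher (37.5%, beside 25.0% over all genes tested). Another 2 were lower (25.0%, beside 25.6%), and the median of the 8 on the log2 scale was 0.13.

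The promoter windows of HIST1H2AC, HIST1H2BN, HIST4H4 and H2AFJ, genes that fell or rose in the results above, are shown from 250 bases before to 50 after the start (RefSeq, GRCh38.p14). They lie at chr6:26123922-26124221 (plus strand), chr6:27838319-27838618 (plus strand), chr12:14771082-14771381 (minus strand) and chr12:14774155-14774454 (plus strand), in that order. Capitals mark matches on either strand to TATAAA (the TATA box), CCAAT (the CCAAT box bound by NF-Y) or ATTTGCAT (the octamer bound by POU2F1).
HIST1H2AC: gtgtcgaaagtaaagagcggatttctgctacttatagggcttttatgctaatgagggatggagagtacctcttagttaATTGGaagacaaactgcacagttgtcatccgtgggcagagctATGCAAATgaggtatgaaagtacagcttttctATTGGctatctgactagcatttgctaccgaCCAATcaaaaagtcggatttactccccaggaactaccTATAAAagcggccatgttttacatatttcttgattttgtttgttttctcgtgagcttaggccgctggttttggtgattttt
HIST1H2BN: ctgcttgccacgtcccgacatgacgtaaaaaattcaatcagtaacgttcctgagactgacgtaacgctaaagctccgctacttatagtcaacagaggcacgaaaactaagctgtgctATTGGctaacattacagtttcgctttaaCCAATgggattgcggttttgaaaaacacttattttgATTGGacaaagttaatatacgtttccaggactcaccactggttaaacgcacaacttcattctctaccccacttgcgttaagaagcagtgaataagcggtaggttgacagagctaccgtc
HIST4H4: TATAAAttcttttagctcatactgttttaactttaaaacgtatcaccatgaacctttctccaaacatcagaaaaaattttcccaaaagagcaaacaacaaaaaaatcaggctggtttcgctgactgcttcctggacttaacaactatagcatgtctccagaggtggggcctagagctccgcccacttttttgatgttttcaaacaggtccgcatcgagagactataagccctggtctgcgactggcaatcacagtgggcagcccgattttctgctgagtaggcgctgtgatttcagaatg
H2AFJ: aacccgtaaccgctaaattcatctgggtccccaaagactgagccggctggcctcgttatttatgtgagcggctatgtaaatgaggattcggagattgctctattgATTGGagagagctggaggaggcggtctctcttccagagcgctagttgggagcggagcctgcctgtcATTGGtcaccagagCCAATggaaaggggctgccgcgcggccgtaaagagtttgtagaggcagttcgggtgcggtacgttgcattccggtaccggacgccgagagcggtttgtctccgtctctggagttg
The HIST1H2AC window, which overlaps that of HIST1H2BC, holds all of these motifs. The windows of HIST1H2BN and H2AFJ hold CCAAT boxes and neither TATAAA nor the octamer. The HIST4H4 window holds TATAAA at its far end and no CCAAT box. Of 65 windows of 61 HIST genes, 66.2% hold TATAAA, 84.6% hold CCAAT and 41.5% hold the octamer, against 11.5%, 34.6% and 1.77% of all 35116 windows. Of 21 windows of 16 variant genes, the shares are 19.0%, 76.2% and 4.76%. The octamer was in 78.6% of the H2A windows and 75.0% of the H2B windows, in 8.33% of the H3 windows and in none of the 6 H1 and 13 H4 windows. CCAAT was in every H1, H2A, H2B and H3 window and in 23.1% of the H4 windows. A match is a description of the letters and not of a bound site, and motifs in the same window may overlap.

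The calls were also read by position. On chromosome 6, 55 HIST genes lie between 25726132 and 27893843, of which 18 were tested, 1 was higher and 2 were lower. Of 17 other tested genes in that interval, 6 were higher (35.3%, beside 25.0% over all genes tested, and 3 by DESeq2) and 0 were lower by edgeR (0.0%, beside 25.6%; 0 at an unadjusted p under 0.05 and 0 by DESeq2), and their median on the log2 scale was 0.16, beside -0.18 for the 18 HIST genes. Around HIST2H2BE on chromosome 1, 5 of 35 other tested genes within 1 Mb were higher and 20 were lower (57.1%), and 0 of the 4 tested HIST genes of that chromosome were called by edgeR (0 also at an unadjusted p under 0.05, and 0 by DESeq2). Around H3F3B, 42 of 66 other genes within 1 Mb were lower (63.6%) and 8 were higher, and around H3F3A 8 of 17 were lower (47.1%). Around H1F0 21 of 49 were higher and 7 lower, although H1F0 itself fell. The part of local shifts in the values of H3F3A and H3F3B was not tested, and these differences by position were given no test.

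Genes that drive histone gene transcription were lower or did not pass. Of 11 such genes found in the table (of 12 symbols), 5 were lower (45.5%, beside 30.1% over protein-coding genes and 25.6% over all genes tested) and 6 did not pass, with a median log2 fold change of -0.15. By library totals 2 were higher and 3 lower, with a median of -0.02. E2F1, a transcription factor of S phase entry, had 1624, 1851 and 1635 counts in HSD52_OE and 2595, 3330 and 2634 counts in control libraries (log2 fold change -0.87 ± 0.10, edgeR adjusted p = 6.69e-06). YY1 fell by 0.40 ± 0.08 and cyclin E1 (CCNE1), which with CDK2 activates NPAT, fell by 0.58 ± 0.13 on the log2 scale (here and below, value ± SE, past the adjusted p of 0.05). NPAT itself, the coactivator of the histone clusters, had 227, 208 and 236 counts in HSD52_OE and 195, 166 and 185 counts in control libraries and did not pass (log2 fold change 0.17 ± 0.13), and is named here after its values were seen.

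For the machinery that forms, exports and degrades the stem-loop ends, the share called was near that of all genes. Of 27 genes found (of 30 symbols), 5 were higher and 9 were lower (51.9% called, beside 50.6% over all genes tested), with a median log2 fold change of -0.06, and by library totals 8 were higher and 7 lower. SLBP, the stem-loop binding protein, had 1214, 1091 and 1198 counts in HSD52_OE and 1602, 1906 and 1922 counts in control libraries, a level of 60.9 ± 4.28 CPM in HSD52_OE and 103 ± 8.16 CPM in control (log2 fold change -0.76 ± 0.09, edgeR adjusted p = 6.92e-06). LSM10, part of the U7 particle that directs the cut after the stem-loop, fell by 0.58 ± 0.10. UPF1, a helicase needed for histone message decay, fell by 0.88 ± 0.10 on the log2 scale. CPSF3, the nuclease that makes the cut in both kinds of 3′ end, rose by 0.30 ± 0.08, CSTF2 by 0.26 ± 0.09 and SNRPD3 by 0.25 ± 0.09. Among 17 genes of general cleavage and polyadenylation 3 were higher and 4 were lower (41.2% called), with a median of -0.04, and by library totals 7 were higher and 1 was lower. CPSF1 fell by 0.62 ± 0.09, NUDT21 by 0.32 ± 0.09 and PABPC1 by 0.27 ± 0.09, while RBBP6 rose by 0.61 ± 0.09, PCF11 by 0.40 ± 0.09 and CSTF3 by 0.23 ± 0.09.

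Histone chaperones and deposition factors were called in both directions at shares near those of other protein-coding genes. Of 45 genes, 10 were higher (22.2%, beside 21.4% over protein-coding genes) and 16 were lower (35.6%, beside 30.1%), with a median log2 fold change of -0.08, and by library totals 12 were higher and 11 lower. ATRX, which with DAXX deposits H3.3 at repeats, rose by 0.82 ± 0.10, the H3-H4 chaperone ASF1A by 0.75 ± 0.10 and UBN2, a partner of the H3.3 chaperone HIRA, by 0.80 ± 0.11. DAXX and HIRA themselves were lower, with log2 fold changes of -0.30 ± 0.08 and -0.35 ± 0.11 (edgeR adjusted p = 0.0056 and 0.0175). Their values are given after they were seen. SUPT6H, a chaperone that travels with RNA polymerase II, fell by 1.20 ± 0.11, the helicase subunit MCM2, which also binds H3-H4, by 0.79 ± 0.09, and VPS72, an H2A.Z-binding subunit of the SRCAP complex, by 0.65 ± 0.09 on the log2 scale. Of 30 S phase genes, 2 were higher (6.67%) and 17 were lower (56.7%), beside 21.4% and 30.1% over protein-coding genes, with a median of -0.25, and by library totals 5 were higher and 13 lower. MCM6 fell by 0.71 ± 0.08 and CDT1 by 0.86 ± 0.10, and RRM1 rose by 0.21 ± 0.08. SLBP, CCNE1, E2F1 and MCM2 stand in more than one of these lists. These lists were drawn up with results of these data known, and they are described by their counts without a test.

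**Figure D5:**
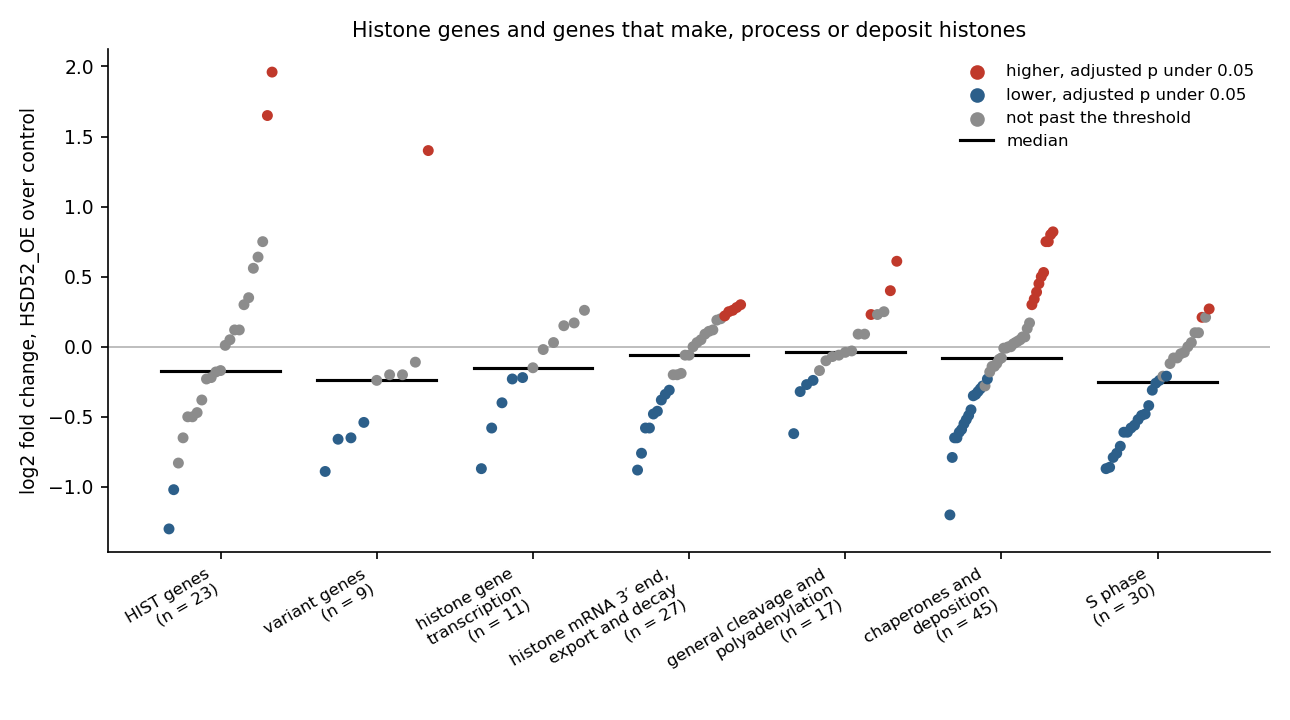
Log2 fold changes, HSD52_OE over control, of the tested HIST and variant genes and of 5 lists of genes that transcribe, process or deposit histones or act in S phase, with a line at each median and points coloured by call. The medians lie between -0.25 and -0.04, and every group holds genes on both sides of 0.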

How the data were processed

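RNA was measured in 6 libraries of LN229 cells, 3 per group, from poly-T selected RNA, per the labels' protocols. The deposited values are raw read counts per gene with no normalization, and the deposited table also gives each gene's length in bases. Per the submitters' processing notes, CASAVA, HISAT2 2.0.5 and featureCounts 1.5.0-p3 were used with hg38. The strand setting and the treatment of reads that match several places are not stated in any label or header. The counts were filtered with filterByExpr, which left 16322 genes, scaled by TMM on totals over all genes, and tested with edgeR 4.0.16 (quasi-likelihood, robust, 2-sided, limma 3.58.1, R 4.3.3) with group as the sole term. P-values were adjusted over the 16322 genes by Benjamini-Hochberg and called at 0.05. The steps were tested on 1 simulated set of 16001 genes, in which 50, 98 and 50 genes changed by 1.5-fold, 2-fold and 4-fold. Of these, 68%, 85.7% and 100% were called. Among changed genes with a mean under 4 CPM 40.9% were called, and 9.19% of all calls were of unchanged genes. Standard errors and 95% intervals come from the same fit. Levels per kilobase divide CPM by the deposited length.

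Stem-loops were searched in the GENCODE 29 transcripts and promoter motifs in the RefSeq windows. The histone genes, the lists and the groups within them were chosen with earlier results of these data known. Counts per library are printed for every tested variant gene, for up to 4 tested HIST genes of each class by level per kilobase and for the called ones, and from each list for at most 3 called genes per direction, by lowest p; genes beyond this rule, such as HIST1H2BC, the genes below the filter and the overlapping rows, were chosen after their values were seen. The values of 1 called gene of the S phase list are not reported here. Alternatives were RLE factors, library totals, other filters, DESeq2 1.42.0, a replicate block and each library left out.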

Additional observations from a re-analysis of the deposited data

How the results depend on the processing

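The 9 calls among the histone genes kept their direction and their side of the threshold under RLE factors, library totals, no filter beyond 1 count, DESeq2, the replicate block and each library left out. A filter of 1 CPM in 3 libraries removed HIST4H4 and left 1 higher HIST gene. With no filter beyond 1 count 4 HIST genes were lower, against 2, and 7 variant genes were lower, against 4, as they were with DESeq2. The additional variant calls were H2AFZ, H2AFY and H3F3B in both (DESeq2 adjusted p = 0.0384, 0.0158 and 0.00912). Leaving out 1 library at a time gave 1 to 2 higher and 4 to 7 lower variant genes and 2 to 3 higher and 2 lower HIST genes. The 7 came without control replicate 1 or without control replicate 3, and the same 3 genes were added. Without control replicate 1, H2AFY2 entered the fit through the HSD52_OE libraries, where it was high, and was the second higher variant gene. HIST1H3E was the third higher HIST gene, without control replicate 2 (edgeR adjusted p = 0.018). By library totals the log2 ratio of the summed variant genes was -0.20, against -0.33. The cause of these moves was not tested. With a replicate block the counts were 4209 higher and 4225 lower over all genes, 2 and 2 among HIST genes and 1 and 4 among variant genes. Libraries of the same number correlated at 0.0307 to 0.0383 in their deviations from the group means, below the 0.1 taken as pairing, although each correlated best with its own number, a hint from the data and not from the design. Of the tested HIST genes 17.4% were called, beside 47.2% of protein-coding genes within the same range of mean level. Only the ends of that range were matched, and not the levels within it. The part of depth in this was not tested.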
